A study of Mus musculus with 6 samples.

Results

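The Hox cluster genes are the 39 protein-coding genes whose symbols are Hoxa, Hoxb, Hoxc or Hoxd followed by a paralog number. They were taken by symbol from the 22332 genes of the deposited table, and all 39 were listed: 11 in HoxA, 10 in HoxB, 9 in HoxC and 9 in HoxD. RNA was sequenced from CGR8 cells, an established mouse embryonic stem cell line. Every culture was grown on gelatin with 10% fetal bovine serum and LIF, a cytokine that keeps such cells undifferentiated. The control group, siCtrl, received a pool of non-targeting siRNAs, and the other group, siRSL24D1, received a pool against Rsl24d1, which encodes a factor of large ribosomal subunit assembly. Each group had 3 libraries, collected 48 hours after transfection, and the series text calls them independent triplicates. No separate information on each culture was used, so p-values measure the spread between these samples. All libraries came from 1 cell line, and an untransfected group was not analysed here.

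Hox genes encode homeodomain transcription factors that give cells their position along the head-to-tail axis. Within each cluster the genes lie in the order in which they are expressed along that axis, with low paralog numbers anterior and high numbers posterior, and the anterior end is usually activated first. In embryonic stem cells the clusters are known to be held silent under Polycomb chromatin. Retinoic acid, Wnt signals and Cdx factors are known to open them during differentiation.

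Library totals ran from 30943635 to 35214000 estimated counts. Rsl24d1 itself fell from 100 ± 2.44 to 53.8 ± 1.74 CPM (TMM-scaled counts relative to library size; SD, n = 3 per group), a log2 fold change of -0.89 in edgeR's quasi-likelihood test (adjusted p = 2.0e-05), so the knockdown was partial. Genes with an estimated count above 0, before rounding, numbered 17710 to 17811 in the siCtrl libraries and 18011 to 18201 in the siRSL24D1 libraries. Of 10 pluripotent stem cell markers, all were measured, and their summed level ran from 3031 to 3410 CPM in siCtrl and from 2619 to 2742 CPM in siRSL24D1. Of these markers 5 fell and 1 rose, beside 20.0% and 21.2% of all 15084 genes tested. Nanog, a core pluripotency factor, was among those that fell, with a log2 fold change of -0.49 ± 0.05 (SE, adjusted p = 1.9e-04). Zfp42, a marker of the naive state, rose with 0.24 ± 0.05 (SE, adjusted p = 0.005) on the log2 scale. The core factor genes Pou5f1 and Sox2 had 0.00 ± 0.07 (SE, adjusted p = 0.99) and 0.08 ± 0.04 (SE, adjusted p = 0.11) and did not pass the test; Sox2 passed when scaled by library totals (adjusted p = 0.047).

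Hox transcripts were scarce in both groups and more abundant after Rsl24d1 knockdown. Summed over all 39 genes, the level was 14.5, 12.5 and 13.6 CPM in siCtrl and 30.5, 30.7 and 31.3 CPM in siRSL24D1. Every siRSL24D1 library lay above every siCtrl library. The siRSL24D1 counts, scaled to library size, were higher by a ratio of 2.28 (95% counting interval 2.14 to 2.43). That interval and those below cover counting error only, not the spread between cultures. In these bulk libraries, more cells with Hox RNA and more Hox RNA per cell cannot be told apart.

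Of the 39 genes, 18 rose and 0 fell at an adjusted p under 0.05 when edgeR was fitted without a filter on low counts. In the same fit 15.3% of all 19740 genes with a count rose and 15.0% fell. Among the 7976 genes within the range of average level spanned by the Hox genes, 10.1% rose and 9.69% fell. No Hox gene was lower at an unadjusted p under 0.05, and DESeq2 also called 0 lower among the 24 members to which it gave an adjusted p; the other 15 had none. The median log2 fold change of the 39 genes was 1.52, beside 0.02 over all genes and 0.05 over genes in the same level range. It was 1.43 with the genes that had no siCtrl count set at their ratio against a floor of 3 counts. The group means were higher in siRSL24D1 for 36 of 39 genes, some with only a few counts. In the unfiltered fit 92.3% of the Hox genes had a log2 fold change above 0. The share was 52.4% over all genes and 52.5% over genes in the same level range. For 26 of 39, all 3 siRSL24D1 libraries lay above all 3 siCtrl libraries, which held for 22.2% of all genes with a count, and for 20.9% the siRSL24D1 libraries all lay below.

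Leaving out siCtrl replicate 2 lowered the unfiltered count to 11, and leaving out any other single library gave 12 to 16. A set of 11 members, among them Hoxa7, Hoxa9, Hoxb1, Hoxb2, Hoxb3, Hoxb9, Hoxc13, Hoxd1, Hoxd4 and Hoxd9, rose in all 6 of those fits and in the DESeq2 Wald test. The low-count filter of the main fit kept 15 of the 39 genes. It asks for enough counts in as many libraries as 1 group holds. Members such as Hoxa2, Hoxa7, Hoxb9 and Hoxd4 had fewer than 10 estimated counts in every siCtrl library. They passed the filter only through the siRSL24D1 libraries, which tilts the share that rose upward. Among the 15 kept, 12 rose, and 21.2% of all 15084 genes tested rose and 20.0% fell. Within the range of average level of those 15, which held 4842 genes, 16.0% rose and 16.0% fell. The other 24 were not tested there, and 36 of 39 had a mean under 1 CPM in siCtrl. Log2 fold changes, standard errors (SE) and adjusted p-values below are from edgeR's filtered fit unless the unfiltered fit is named.

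**Figure D1:**
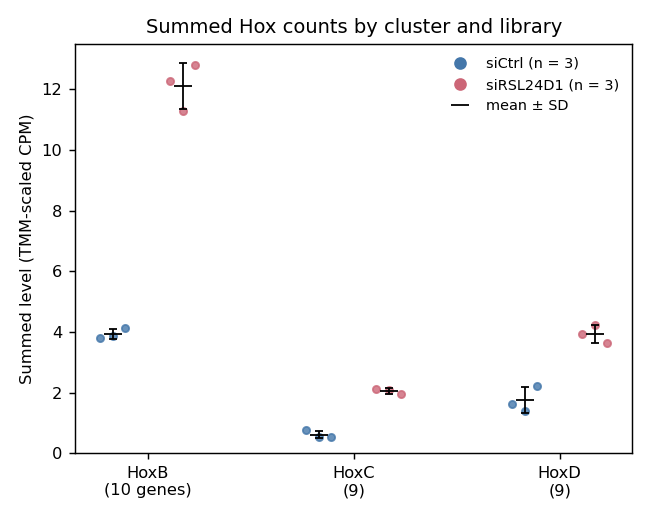
Summed TMM-scaled CPM of the HoxB, HoxC and HoxD genes (y axis) in the 3 siCtrl and 3 siRSL24D1 libraries (points), with mean ± SD. In each of these clusters every siRSL24D1 point lies above every siCtrl point.

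Among the clusters, summed HoxB counts were higher by a ratio of 3.07 (95% counting interval 2.74 to 3.45). HoxC, the cluster with the fewest counts, had a ratio of 3.31 (95% counting interval 2.48 to 4.47). HoxD had a ratio of 2.23 (95% counting interval 1.86 to 2.68). In each of these clusters the siRSL24D1 libraries all lay above the siCtrl libraries. The HoxA sum is not reported here, and differences between clusters were not tested.

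Promoter windows, the 250 bases before an annotated start, were read from RefSeq (GRCm38.p6) for the members that had an entry, which were 22 of 39 with 24 windows. The windows were searched for 4 short motifs on both strands. TGATNNAT, a composite site for Hox and Pbx proteins, was present in 4 of 24 Hox windows and in 7.68% of all 32851 windows. TTTATG, a Cdx site, was present in 5 of 24 Hox windows and in 10.8% of all windows. AGGTCA, the core site of retinoic acid receptors and other nuclear receptors, was present in 6 of 24 Hox windows and in 14% of all windows. CCAAT, a common promoter box, was present in 14 of 24 Hox windows and in 33.8% of all windows. These shares were not compared by a test. TGATNNAT can share bases with CCAAT on either strand. The Hox windows had a median of 12.5 CpG dinucleotides and 58.6% GC, beside 6 and 52.4% over all windows. A match describes the letters only, not binding.

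The HoxA cluster lies on chromosome 6, on the minus strand (GRCm38). Hoxa2, a selector of the second pharyngeal arch, was at 0.151, 0.246 and 0.147 CPM in siCtrl and 0.319, 0.513 and 0.451 CPM in siRSL24D1 and rose with a log2 fold change of 1.24 ± 0.35 (SE, adjusted p = 0.023). Its call was lost without siCtrl replicate 1 or 3 or siRSL24D1 replicate 2 or 3 (adjusted p = 0.064 to 0.08) and in DESeq2 (adjusted p = 0.14). Its promoter (chr6:52164832-52165081, minus strand) is shown because it holds a Hox and Pbx composite match, ATCAATCA on the printed strand, from -111 to -104 relative to the start, with 4 CCAAT boxes. Capitals mark the matches.
Hoxa2: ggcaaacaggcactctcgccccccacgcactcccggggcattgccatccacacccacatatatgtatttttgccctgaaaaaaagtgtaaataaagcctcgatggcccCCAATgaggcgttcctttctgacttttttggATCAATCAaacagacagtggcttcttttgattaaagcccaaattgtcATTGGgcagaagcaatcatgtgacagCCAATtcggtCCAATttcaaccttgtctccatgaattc

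Hoxa3 and Hoxa4 were near the limit of counting. Hoxa3 had 6, 2 and 8 estimated counts in siCtrl and 13, 12 and 9 estimated counts in siRSL24D1, above without overlap but not past the unfiltered test, with a log2 fold change of 1.07 ± 0.48 (SE, adjusted p = 0.13). Hoxa4 had 3, 4 and 3 estimated counts in siCtrl and 3, 5 and 6 estimated counts in siRSL24D1, and its groups overlapped. Of the central members, Hoxa5, which acts in lung and axial skeleton development, was at 0.393, 0.154 and 0.176 CPM in siCtrl and 0.573, 0.513 and 0.692 CPM in siRSL24D1. It rose with a log2 fold change of 1.29 ± 0.37 (SE, adjusted p = 0.023), but siCtrl replicate 1 was more than 2 times as high as the other siCtrl libraries. The call was lost without siCtrl replicate 2 or 3 or siRSL24D1 replicate 1 or 3 (adjusted p = 0.059 to 0.088) and in DESeq2 (adjusted p = 0.076). Hoxa6 had no count in siCtrl and 0, 3 and 2 in siRSL24D1, a ratio of 1.67 against a floor of 3 counts over a group. That ratio has no interval. The groups of Hoxa6 overlapped, and it did not pass the unfiltered test (adjusted p = 0.16). Hoxa7, a thoracic patterning gene, was at 0.181, 0.215 and 0.117 CPM in siCtrl and 0.828, 0.684 and 0.572 CPM in siRSL24D1. Its groups were well apart, and it rose with a log2 fold change of 2.0 ± 0.32 (SE, adjusted p = 0.0017).

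The posterior HoxA members were all under 1 CPM. Hoxa9, known in limb and blood progenitors, had 4, 2 and 1 estimated counts in siCtrl and 9, 13 and 17 estimated counts in siRSL24D1. It rose in the unfiltered fit with a log2 fold change of 2.41 ± 0.54 (SE, adjusted p = 0.0073). Hoxa10, which acts in limb and uterus, had 1, 2 and 5 estimated counts in siCtrl and 7, 5 and 7 estimated counts in siRSL24D1 and overlapped between groups. Hoxa11, a forearm and kidney gene, had 1, 0 and 1 estimated counts in siCtrl and 3, 9 and 6 estimated counts in siRSL24D1, and rose in the unfiltered fit with 2.94 ± 0.85 (SE, adjusted p = 0.025) on the log2 scale. That call was lost without siCtrl replicate 1 or 2 or siRSL24D1 replicate 2 or 3 (adjusted p = 0.054 to 0.095). Hoxa13, a gene of the distal limb, had 1, 7 and 3 estimated counts in siCtrl and 6, 8 and 12 estimated counts in siRSL24D1, with overlap.

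**Figure D2:**
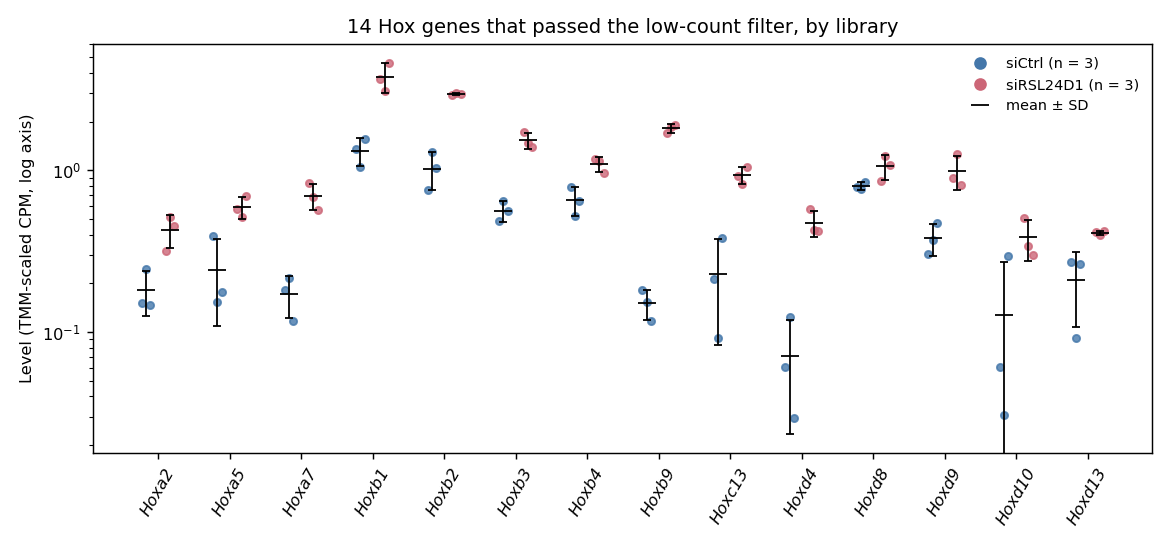
TMM-scaled CPM (y axis, log scale) of 14 Hox genes kept by the low-count filter, with 1 point per library and mean ± SD for siCtrl and siRSL24D1 (n = 3 each); the lower SD bar of Hoxd10 in siCtrl runs off the log axis. Hoxb9 has the widest gap between the groups, and in each of the 14 genes every siRSL24D1 point lies above every siCtrl point. Some of the 14 passed the filter only through siRSL24D1 libraries, so this separation partly follows from the filter. Over all 39 Hox genes it held for 26.

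The HoxB cluster (chr11:96194316-96368256, plus strand) held 5 of the 12 genes that rose. Hoxb1 (chr11:96365752-96368256, plus strand), which defines a single hindbrain segment, was at 1.36, 1.04 and 1.55 CPM in siCtrl and 3.66, 3.08 and 4.63 CPM in siRSL24D1. No library of one group reached the other group, and Hoxb1 rose with a log2 fold change of 1.52 ± 0.21 (SE, adjusted p = 8.0e-04). Its promoter (chr11:96365508-96365757, plus strand) is shown because Hoxb1 is known to maintain its own transcription through upstream sites for Hox and Pbx proteins. A TGATGGAT match lies from -162 to -155, with 2 CCAAT boxes on the minus strand, read ATTGG here. Capitals mark the matches.
Hoxb1: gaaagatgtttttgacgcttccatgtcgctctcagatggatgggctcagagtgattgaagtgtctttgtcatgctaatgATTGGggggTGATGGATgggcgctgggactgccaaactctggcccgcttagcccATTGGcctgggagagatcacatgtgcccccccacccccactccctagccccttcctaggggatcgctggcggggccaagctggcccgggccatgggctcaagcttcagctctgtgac

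Hoxb2, a hindbrain gene, was at 0.756, 1.29 and 1.03 CPM in siCtrl and 2.93, 3.02 and 2.95 CPM in siRSL24D1. The 3 siRSL24D1 libraries were close together and all above siCtrl, and it rose with a log2 fold change of 1.53 ± 0.19 (SE, adjusted p = 4.7e-04). Hoxb3 was at 0.484, 0.645 and 0.557 CPM in siCtrl and 1.72, 1.48 and 1.38 CPM in siRSL24D1 and rose with a log2 fold change of 1.44 ± 0.20 (SE, adjusted p = 8.4e-04). The fold changes of Hoxb1, Hoxb2 and Hoxb3 differed by less than their SEs. Hoxb4, which is known in blood stem cells, was at 0.786, 0.522 and 0.645 CPM in siCtrl and 1.18, 1.14 and 0.963 CPM in siRSL24D1 and rose by less, with 0.74 ± 0.22 (SE, adjusted p = 0.025) on the log2 scale. The Hoxb4 call was lost without siCtrl replicate 2 or 3 or siRSL24D1 replicate 1 or 2 (adjusted p = 0.057 to 0.093) and in DESeq2 (adjusted p = 0.13).

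The central HoxB genes had 3 to 9 counts each over the siCtrl group. Hoxb5 had 0, 0 and 3 estimated counts in siCtrl and 3, 2 and 5 estimated counts in siRSL24D1. Hoxb6 had 2, 0 and 1 estimated counts in siCtrl and 6, 3 and 7 estimated counts in siRSL24D1. Hoxb7, known in kidney and thorax, had 4, 4 and 1 estimated counts in siCtrl and 9, 10 and 12 estimated counts in siRSL24D1, and rose in the unfiltered fit with 1.74 ± 0.52 (SE, adjusted p = 0.03) on the log2 scale. That call was lost when any library other than siCtrl replicate 1 was left out (adjusted p = 0.056 to 0.1) and in DESeq2 (adjusted p = 0.094). Hoxb8 had 0, 1 and 2 estimated counts in siCtrl and 5, 6 and 4 estimated counts in siRSL24D1. Hoxb6 and Hoxb8 were above without overlap but did not pass the unfiltered test (adjusted p = 0.067 and 0.064), and the Hoxb5 groups overlapped.

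Hoxb9 (chr11:96271457-96276595, plus strand), a posterior thoracic gene, was the member with the largest fold change of the filtered fit. It had 6, 5 and 4 estimated counts in siCtrl and 53, 65 and 63 estimated counts in siRSL24D1, or 0.181, 0.154 and 0.117 CPM in siCtrl and 1.69, 1.85 and 1.90 CPM in siRSL24D1. The lowest siRSL24D1 library was many times the highest siCtrl library. Hoxb9 rose with a log2 fold change of 3.56 ± 0.23 (SE, adjusted p = 3.9e-05), and per length it went from 0.0586 to 0.704 CPM per kb of annotated exon. Among the HoxB genes, its level per length in siRSL24D1 came after Hoxb1 and Hoxb2 (1.63 ± 0.338 and 0.851 ± 0.0138 CPM per kb, SD, n = 3), whereas in siCtrl it was below 0.1 CPM per kb. Hoxb13, a tail gene that lies apart from the rest of the cluster, had 2, 2 and 1 estimated counts in siCtrl and 11, 4 and 4 estimated counts in siRSL24D1. Its groups did not overlap, and the unfiltered fit gave 1.85 ± 0.74 (SE, adjusted p = 0.087) on the log2 scale.

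HoxC (chr15:102921103-103036852, plus strand) had 62 counts in siCtrl and 205 in siRSL24D1. Its most anterior member, Hoxc4, had 15 counts in each group and a ratio of 1.00 (95% counting interval 0.456 to 2.20), the lowest ratio of the members that had one. Hoxc5 had 3, 2 and 0 estimated counts in siCtrl and 8, 8 and 8 estimated counts in siRSL24D1 and rose in the unfiltered fit with 2.17 ± 0.68 (SE, adjusted p = 0.036) on the log2 scale. That call was lost when any library other than siCtrl replicate 1 was left out (adjusted p = 0.071 to 0.092) and in DESeq2 (adjusted p = 0.085). Hoxc6, a thoracic gene, had 4, 1 and 1 estimated counts in siCtrl and 9, 12 and 1 estimated counts in siRSL24D1, where siRSL24D1 replicate 3 was no higher than siCtrl. Hoxc8, also thoracic, had 2, 0 and 0 estimated counts in siCtrl and 7, 8 and 5 estimated counts in siRSL24D1 and rose in the unfiltered fit with 3.09 ± 0.88 (SE, adjusted p = 0.023) on the log2 scale. Leaving out siCtrl replicate 2 or 3 or siRSL24D1 replicate 1 or 2 ended that call (adjusted p = 0.06 to 0.08).

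Hoxc9 had 2, 2 and 3 estimated counts in siCtrl and 4, 6 and 8 estimated counts in siRSL24D1 and did not pass the unfiltered test (adjusted p = 0.12), although its groups did not overlap. Hoxc10 had 1 count in siCtrl and 9 in siRSL24D1, a ratio of 9.0 (95% counting interval 1.25 to 394). That interval is wide because so few counts were seen. Hoxc11 had 1 and 2 counts, and Hoxc12 had 2 in each group, too few for a ratio. At the posterior end, Hoxc13, known for its part in hair and tail development, had enough counts to pass the low-count filter, unlike these neighbours. It was at 0.212, 0.0922 and 0.381 CPM in siCtrl and 0.924, 0.827 and 1.05 CPM in siRSL24D1. The siRSL24D1 libraries were all above the siCtrl libraries, which differed widely among themselves, and Hoxc13 rose with a log2 fold change of 2.0 ± 0.37 (SE, adjusted p = 0.0035).

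HoxD (chr2:74668310-74765142, plus strand) had its largest ratios at Hoxd1 and Hoxd4. Hoxd1 had 1, 1 and 1 estimated counts in siCtrl and 9, 13 and 9 estimated counts in siRSL24D1 after rounding, a ratio of 10.3 (95% counting interval 3.22 to 52.8). It rose in the unfiltered fit with a log2 fold change of 3.21 ± 0.58 (SE, adjusted p = 0.0021). Hoxd3, a neck vertebra gene, had 3, 0 and 8 estimated counts in siCtrl and 11, 5 and 8 estimated counts in siRSL24D1, with overlap. Hoxd4 (chr2:74711929-74729160, plus strand), also active in neck vertebrae, was at 0.0605, 0.123 and 0.0293 CPM in siCtrl and 0.573, 0.428 and 0.421 CPM in siRSL24D1. The groups were well apart, and it rose with a log2 fold change of 2.68 ± 0.45 (SE, adjusted p = 0.0021). Hoxd3 and Hoxd4 share exons in the annotation, so how their counts were divided is uncertain.

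The Hoxd4 promoter (chr2:74721728-74721977, plus strand) is shown as that of the member with the second largest fold change of the filtered fit, beside Hoxd8 (chr2:74704365-74704614, plus strand), its neighbour that did not pass the test. The Hoxd4 window lies inside the gene span given above, before a RefSeq start within that span. Which start was used in these cells was not tested. The window has a Cdx match, TTTATG, from -45 to -40 and 1 CCAAT box. It also has the retinoic acid core site from -145 to -140, read TGACCT on this strand. The Hoxd8 window has the core site AGGTCA from -135 to -130 and 1 CCAAT box. Both windows thus hold the core site, and capitals mark the matches.
Hoxd4: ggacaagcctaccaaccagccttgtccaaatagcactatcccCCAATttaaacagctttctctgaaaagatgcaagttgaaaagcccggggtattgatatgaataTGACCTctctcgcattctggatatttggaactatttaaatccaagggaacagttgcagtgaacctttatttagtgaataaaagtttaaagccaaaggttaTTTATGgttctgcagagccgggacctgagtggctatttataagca
Hoxd8: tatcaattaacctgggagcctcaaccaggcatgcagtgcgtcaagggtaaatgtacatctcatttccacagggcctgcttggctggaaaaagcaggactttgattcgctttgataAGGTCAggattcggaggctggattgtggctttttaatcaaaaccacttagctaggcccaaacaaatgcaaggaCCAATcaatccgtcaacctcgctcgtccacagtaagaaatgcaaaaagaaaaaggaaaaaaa

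Hoxd8 was at 0.786, 0.768 and 0.850 CPM in siCtrl and 0.860, 1.23 and 1.08 CPM in siRSL24D1. Its libraries separated by group but by little, and the log2 fold change of 0.40 ± 0.20 (SE, adjusted p = 0.15) did not pass the test. Per length it was at 0.292 ± 0.0156 CPM per kb in siCtrl (SD, n = 3), close to Hoxb2 at 0.294 ± 0.0766 CPM per kb, and the values of these genes in siCtrl differed by less than their spread. Hoxd9, a limb and spine gene, was at 0.302, 0.369 and 0.469 CPM in siCtrl and 0.892, 1.25 and 0.812 CPM in siRSL24D1 and rose with a log2 fold change of 1.37 ± 0.28 (SE, adjusted p = 0.0052). Hoxd10 was at 0.0605, 0.0307 and 0.293 CPM in siCtrl and 0.510, 0.342 and 0.301 CPM in siRSL24D1, with siCtrl replicate 3 close to the siRSL24D1 libraries. Its log2 fold change of 1.53 ± 0.61 (SE, adjusted p = 0.078) did not pass the test, and without siCtrl replicate 3 it did (2.95 on the log2 scale, adjusted p = 0.0053).

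At the posterior end, Hoxd11 had 3 counts in siCtrl and 2 in siRSL24D1. Hoxd12 had none in siCtrl and 2, 0 and 3 in siRSL24D1, a ratio of 1.67 against the floor of 3 counts. Its groups overlapped, and it did not pass the unfiltered test (adjusted p = 0.16). Hoxd13, a digit gene, was at 0.272, 0.0922 and 0.264 CPM in siCtrl and 0.414, 0.399 and 0.421 CPM in siRSL24D1. The siRSL24D1 libraries were close together above siCtrl, and the log2 fold change of 0.95 ± 0.38 (SE, adjusted p = 0.074) did not pass the test.

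**Figure D3:**
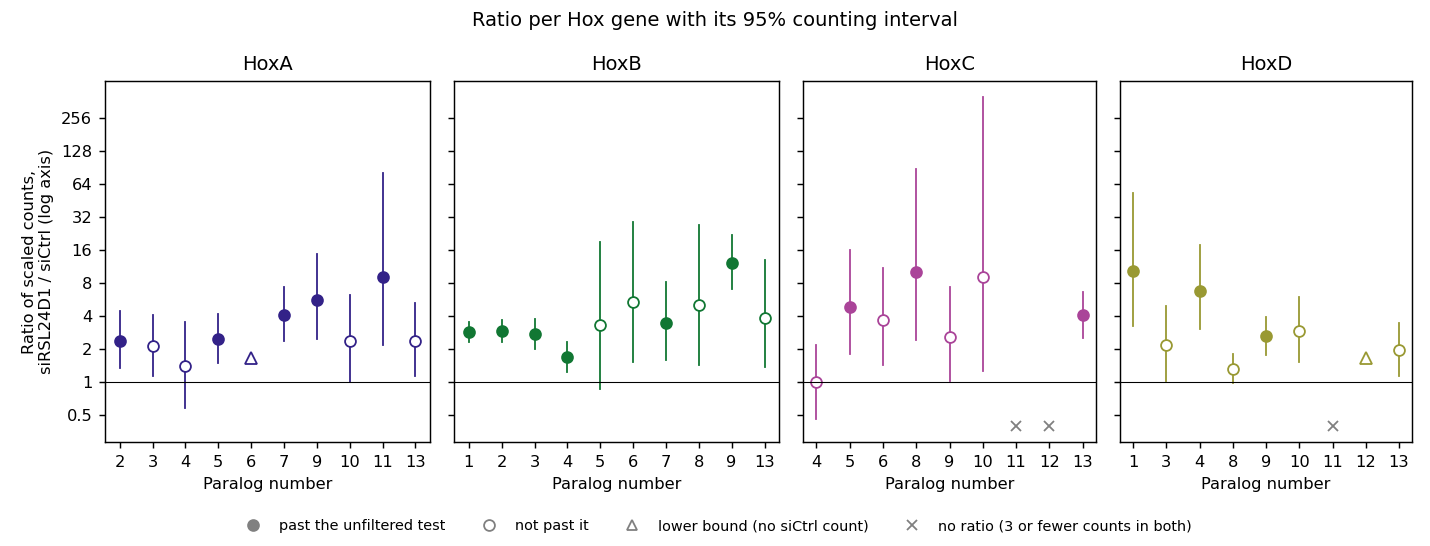
Ratio of library-scaled counts, siRSL24D1 over siCtrl (y axis, log scale), for the Hox genes described, by cluster and paralog number (x axis), with 95% counting intervals; filled points passed the unfiltered edgeR test. Triangles, called lower bounds in the key, are the ratios of Hoxa6 and Hoxd12 against a floor of 3 siCtrl counts. They have no interval and do not bound the true ratio, and neither gene passed the unfiltered test. Crosses mark Hoxc11, Hoxc12 and Hoxd11 without a ratio, and Hoxc4 lies at 1.

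Along the axis, the 4 anterior HoxB genes (paralog groups 1 to 4) had a summed count ratio of 2.63 (95% counting interval 2.33 to 2.98), and the 3 anterior HoxD genes had a ratio of 4.86 (95% counting interval 3.02 to 8.18). Hoxc4, the only anterior HoxC gene, had a ratio of 1.00. The sums of anterior HoxA and of all anterior genes are not reported here. The anterior class as a whole is therefore not set beside the other classes. Over all clusters, the 11 central genes (groups 5 to 8) had a ratio of 2.48 (95% counting interval 2.05 to 3.01). The 16 posterior genes (groups 9 to 13) had a ratio of 3.89 (95% counting interval 3.26 to 4.67), which was 3.03 (95% counting interval 2.50 to 3.69) without Hoxb9. Without that gene, the counting intervals of the central and posterior classes overlapped. Among paralog groups 2 to 13, the ratio ran from 1.66 (95% counting interval 1.26 to 2.20) for group 8, where Hoxd8 held most of the counts, to 5.03 (95% counting interval 3.86 to 6.64) for group 9, where Hoxb9 held 181 of 337 counts in siRSL24D1. Differences between these classes were not tested.

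Some Hox genes share sequence with other annotated genes, which could move counts between them. Hoxc5 shares exons with Hoxc10, and Hoxa2 and Hoxa3 share exons with Gm28308, which had 0 counts in siCtrl and 1 in siRSL24D1. Gm28230, which overlaps Hoxd3 and Hoxd4, had 12 and 31 counts. Gm28309 shares exons with Hoxd10 and Hoxd11. Antisense (opposite-strand) transcripts, among others, lie at Hoxa3 and Hoxa7 (Hoxaas3), Hoxa4 (Gm29430), Hoxa11 (Hoxa11os), and Hoxb2 and Hoxb3 (Hoxb3os). The same holds for Hoxb5 (Hoxb5os), and for Hoxd3 and Hoxd4 (Hoxd3os1). The library kit was stranded but the strand setting of the counting is not given in the sources used here, so a gene and its antisense partner may not be told apart. The one such partner in the table, 5730596B20Rik, opposite Hoxa3, had 11 counts in siCtrl and 49 in siRSL24D1 and rose with a log2 fold change of 2.12 ± 0.43 (SE, adjusted p = 0.0051).

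The nearest measured genes on either side of the clusters moved in both directions. Their distances from the clusters ran from 8753 bases for Evx2 to 1170707 bases for Ttc30b, both at HoxD. Of the 5 nearest measured genes on each side of each cluster, 40 in all, 37 were tested, 7 rose and 12 fell, at a median log2 fold change of -0.03. These are 18.9% and 32.4% of the neighbours tested, beside 21.2% and 20.0% of all genes tested. Evx1, a homeobox gene beyond the posterior end of HoxA, was at 1.97, 1.97 and 1.82 CPM in siCtrl and 2.99, 3.33 and 3.64 CPM in siRSL24D1 and rose with a log2 fold change of 0.79 ± 0.13 (SE, adjusted p = 0.0019). Evx2, beyond the posterior end of HoxD, had no count in siCtrl and 2 in siRSL24D1. Ttll6, a tubulin-modifying enzyme gene beyond Hoxb13, rose by 0.91 ± 0.10 (SE, adjusted p = 3.4e-04) on the log2 scale. On the anterior side, Skap2, a signalling adaptor gene beside HoxA, fell with a log2 fold change of -0.27 ± 0.06 (SE, adjusted p = 0.0092). Skap1 and Mtx2, the nearest genes to Hoxb1 and Hoxd1, had -0.39 ± 0.26 and 0.09 ± 0.06 (SE) and did not pass the test. Beside HoxC, Smug1, a DNA repair gene, fell with -0.33 ± 0.08 (SE, adjusted p = 0.014) on the log2 scale, a call lost without siCtrl replicate 2 (adjusted p = 0.052), and Calcoco1 had -0.08 ± 0.05 (SE) and did not pass.

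**Figure D4:**
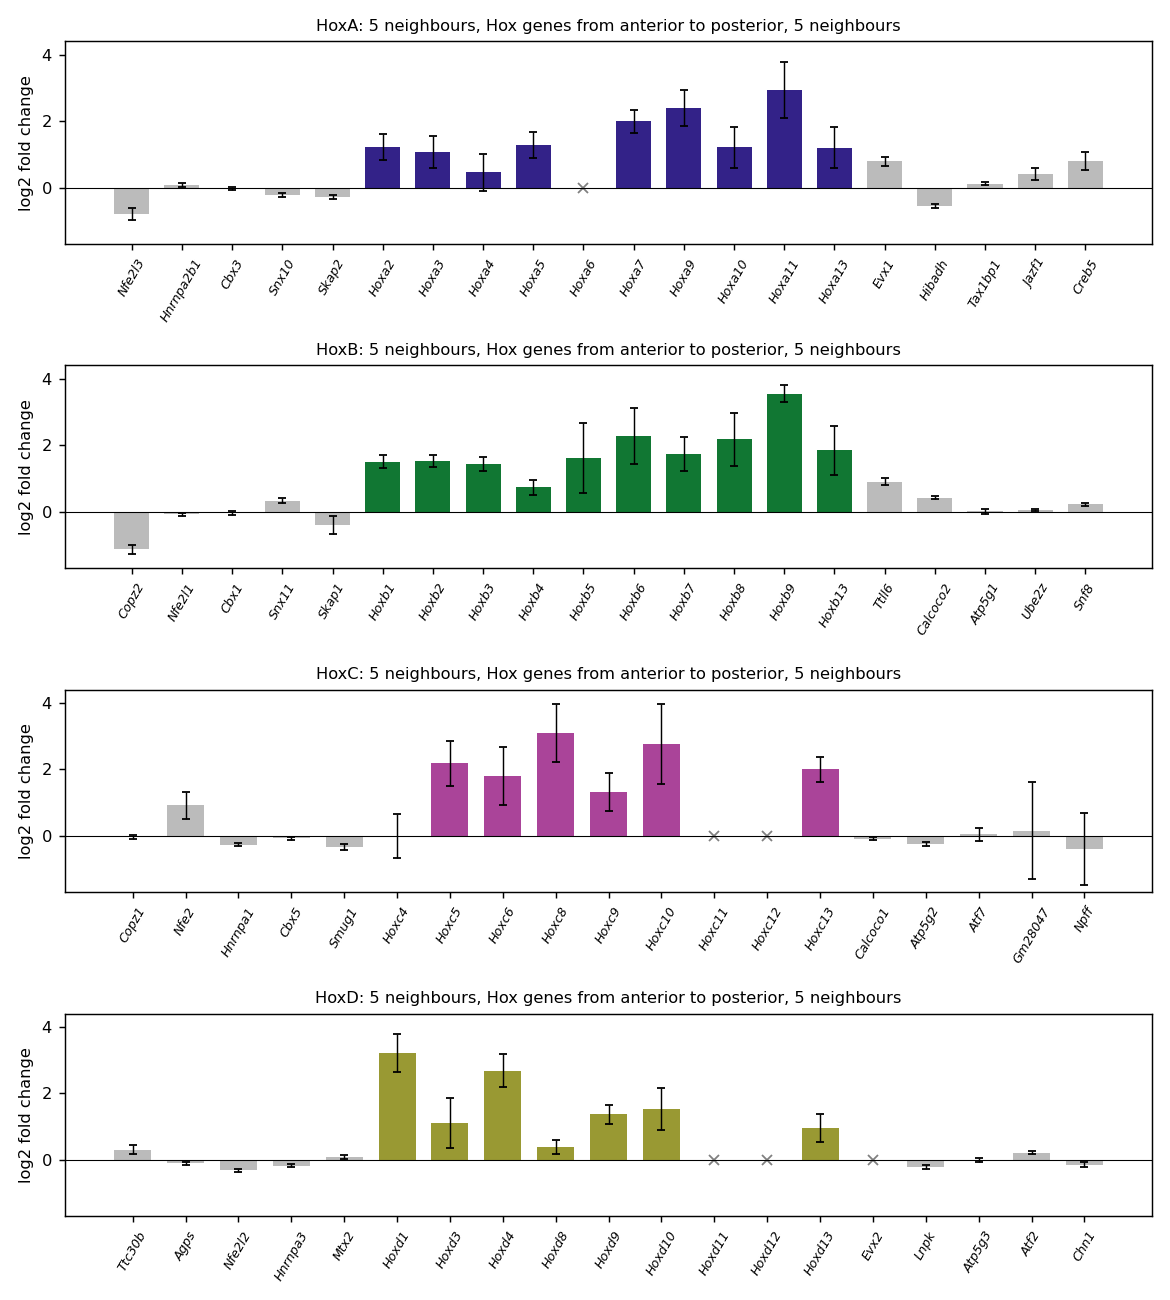
Log2 fold change, siRSL24D1 over siCtrl, of the unfiltered edgeR fit (y axis; bars with SE) for the Hox genes described of each cluster in order from anterior to posterior (coloured) and the 5 nearest measured genes on each side (grey). Grey crosses mark genes with no count in siCtrl or with 3 or fewer counts in both groups; the coloured bars are above 0 except for Hoxc4, which is near 0, and the grey bars lie on both sides of 0.

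Among the cofactors that bind DNA with Hox proteins, changes went both ways: of 9 genes tested, 2 rose and 3 fell, at a median log2 fold change of 0.03. The counts of this and the following lists stand beside 21.2% of all 15084 tested genes that rose and 20.0% that fell, and none of the lists was tested against that background. Meis1, whose product binds DNA with Hox and Pbx proteins, was at 5.08, 4.61 and 5.39 CPM in siCtrl and 9.62, 8.78 and 10.0 CPM in siRSL24D1. It rose with a log2 fold change of 0.91 ± 0.10 (SE, adjusted p = 2.4e-04), with no overlap between the groups. Meis2, its paralog, rose with 0.60 ± 0.14 (SE, adjusted p = 0.011) on the log2 scale. The Pbx genes encode the other main Hox partners. Pbx2 fell with -0.34 ± 0.05 (SE, adjusted p = 0.0017), Pbx3 with -0.23 ± 0.06 (SE, adjusted p = 0.017) and Pbx4 with -0.46 ± 0.12 (SE, adjusted p = 0.014). The Pbx3 and Pbx4 calls were lost without siCtrl replicate 2 (adjusted p = 0.07 and 0.055), and that of Pbx4 also in DESeq2 (adjusted p = 0.052).

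Of the Cdx genes and other genes that act upstream of Hox genes, 3 of 8 rose and 5 did not pass the test, at a median log2 fold change of 0.37. Cdx2, a caudal factor that activates central and posterior Hox genes, was at 1.66, 1.63 and 1.79 CPM in siCtrl and 5.03, 4.76 and 5.47 CPM in siRSL24D1. The groups were well apart, and Cdx2 rose with 1.58 ± 0.12 (SE, adjusted p = 5.5e-05) on the log2 scale. Its paralogs Cdx1 and Cdx4 had 0.41 ± 0.27 (SE, adjusted p = 0.26) and -0.44 ± 0.41 (SE, adjusted p = 0.43) and did not pass. Sall4, a zinc finger factor of stem cells, rose with 0.34 ± 0.09 (SE, adjusted p = 0.015), a call lost without siCtrl replicate 2 or siRSL24D1 replicate 1 or 3 (adjusted p = 0.055 to 0.058). Egr2, a hindbrain factor that activates Hoxa2 and Hoxb2, rose with 1.04 ± 0.28 (SE, adjusted p = 0.018), a call lost without siCtrl replicate 2 or siRSL24D1 replicate 1 (adjusted p = 0.064 each).

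The retinoic acid genes showed 6 of 19 tested that rose (31.6%, beside 21.2% of all genes) and 1 that fell (5.26%, beside 20.0%), at a median of 0.08. Cyp26b1, which degrades retinoic acid, was at 0.121, 0.154 and 0.264 CPM in siCtrl and 0.605, 0.684 and 0.632 CPM in siRSL24D1 and rose with 1.81 ± 0.32 (SE, adjusted p = 0.0027) on the log2 scale. Cyp26a1, the other main degrading enzyme and a known target of the signal, rose with 0.49 ± 0.06 (SE, adjusted p = 4.0e-04). Dhrs3, which reduces retinaldehyde to retinol, was at 11.2, 11.8 and 10.2 CPM in siCtrl and 4.11, 4.02 and 3.58 CPM in siRSL24D1 and fell with -1.50 ± 0.10 (SE, adjusted p = 3.8e-05). Rarb, a receptor gene known to be induced by retinoic acid, had -0.04 ± 0.19 (SE, adjusted p = 0.88) and did not pass; its sign changed without siCtrl replicate 2 or siRSL24D1 replicate 2 or 3. Stra6, a retinol uptake receptor gene, rose with 0.86 ± 0.21 (SE, adjusted p = 0.012), a call lost without siCtrl replicate 2 (adjusted p = 0.052) and in DESeq2 (adjusted p = 0.092). Aldh1a1, which makes retinoic acid, rose with 0.87 ± 0.26 (SE, adjusted p = 0.033), a call lost in DESeq2 (adjusted p = 0.26), without a filter (adjusted p = 0.066) and when any library other than siRSL24D1 replicate 3 was left out (adjusted p = 0.064 to 0.086).

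Genes of the Polycomb complexes, which silence the clusters, moved both ways, in shares near those of all genes: 8 of 27 rose (29.6%, beside 21.2%) and 5 fell (18.5%, beside 20.0%), at a median of 0.09. In the complex that methylates histone H3 at lysine 27, the catalytic subunit gene Ezh2 fell with -0.25 ± 0.04 (SE, adjusted p = 0.003) on the log2 scale and its paralog Ezh1 with -0.58 ± 0.05 (SE, adjusted p = 1.1e-04). The core subunit gene Suz12 fell with -0.21 ± 0.06 (SE, adjusted p = 0.021), a call lost without siRSL24D1 replicate 2 (adjusted p = 0.055), and Eed, another core subunit, rose with 0.31 ± 0.05 (SE, adjusted p = 0.0014). The accessory subunit gene Phf19 fell with -0.50 ± 0.12 (SE, adjusted p = 0.0095) and Epop rose with 0.73 ± 0.07 (SE, adjusted p = 2.1e-04). In the other complex, Cbx8, which reads the mark, rose with 0.87 ± 0.15 (SE, adjusted p = 0.0024), Bmi1 rose with 0.79 ± 0.08 (SE, adjusted p = 2.4e-04), and Pcgf1 fell with -0.47 ± 0.10 (SE, adjusted p = 0.0081).

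The opposing Trithorax genes and H3K27 demethylases had 1 of 14 that fell and 13 that did not pass the test, at a median of 0.08. Psip1, a chromatin reader of active genes, fell with -0.25 ± 0.04 (SE, adjusted p = 0.0013) on the log2 scale. Kmt2a, the methyltransferase best known for keeping Hox genes active, was at 46.3, 59.8 and 115 CPM in siCtrl and 115, 59.2 and 118 CPM in siRSL24D1. The libraries of both groups were spread widely and overlapped. Kmt2a had 0.40 ± 0.35 (SE, adjusted p = 0.4) and did not pass, and passed without siCtrl replicate 3 (0.86 on the log2 scale, adjusted p = 0.032). Kmt2b had 0.25 ± 0.27 (SE, adjusted p = 0.49), at 26.2, 31.4 and 51.6 CPM in siCtrl and 49.3, 29.7 and 51.4 CPM in siRSL24D1. Kmt2a, Kmt2b, Kmt2d and Kdm6b were all higher in siCtrl replicate 3 and siRSL24D1 replicates 1 and 3 than in the other libraries. So were Kmt2c, Ash1l and Hcfc1 and, outside this list, Phc1 and Phc3 of the Polycomb list. The pass of Kmt2a depended on which of these libraries was left out, and the source of the shared pattern was not tested. Counts of the ParaHox genes Gsx1, Gsx2 and Pdx1, relatives of the Hox genes outside the clusters, were too low to be tested.

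**Figure D5:**
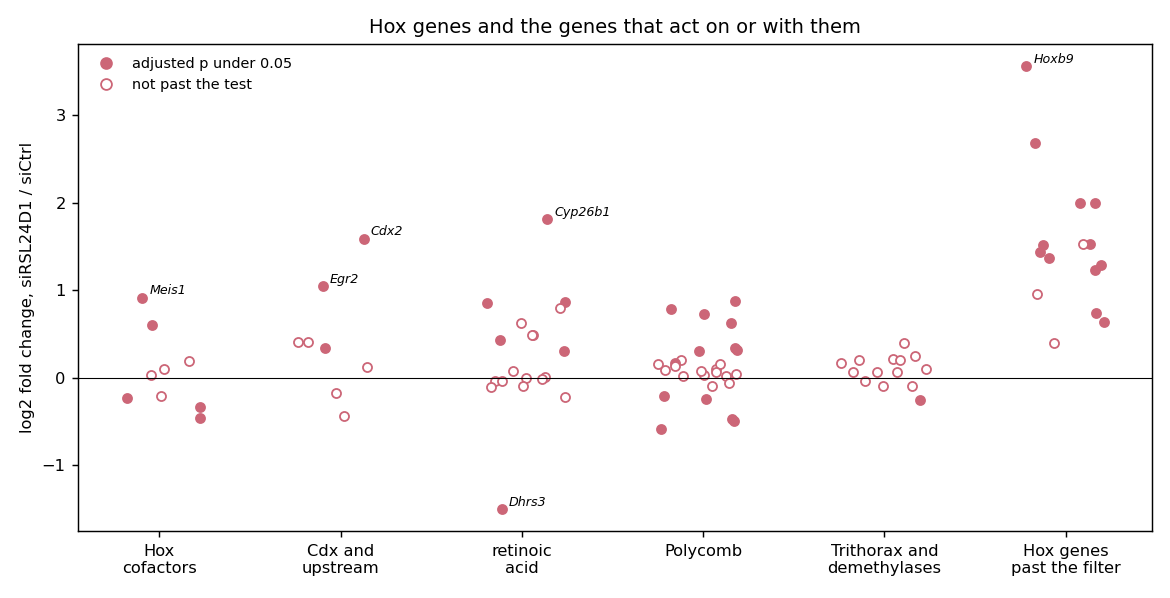
Log2 fold change, siRSL24D1 over siCtrl, in edgeR's filtered fit (y axis) for the tested genes of 5 lists of Hox cofactors and regulators and for the 15 tested Hox genes, 1 point per gene; filled points have an adjusted p under 0.05, and sideways spread has no meaning. The Hox points all lie above 0 and reach 3.56, and each of the other lists has points on both sides of 0. Some of the Hox genes passed the filter only through siRSL24D1 libraries.

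Markers of cell types that express Hox genes moved as follows, and their part in the Hox result was not tested. Of 16 markers of axial progenitors and presomitic mesoderm, the cells of the growing tail end, 15 were tested, 8 rose (53.3%, beside 21.2% of all genes) and 3 fell (20.0%, the same share as over all genes). Their summed level ran from 270.4 to 288 CPM in siCtrl and from 312 to 336 CPM in siRSL24D1, and none was at 0. Nkx1-2, a gene of the caudal progenitors, was at 2.78, 3.04 and 3.14 CPM in siCtrl and 11.3, 14.2 and 14.1 CPM in siRSL24D1 and rose with 2.15 ± 0.12 (SE, adjusted p = 2.2e-05) on the log2 scale. The growth factor genes Fgf17 and Fgf4 fell with -0.78 ± 0.06 (SE, adjusted p = 8.6e-05) and -0.55 ± 0.06 (SE, adjusted p = 3.3e-04). Dll3, a Notch ligand gene, fell with -0.21 ± 0.06 (SE, adjusted p = 0.029), a call lost without siCtrl replicate 1 or 2 or siRSL24D1 replicate 1 or 3 (adjusted p = 0.052 to 0.088) and in DESeq2 (adjusted p = 0.087). Of 12 hindbrain and spinal cord markers, 7 were tested, 2 rose and 5 did not pass the test. Their sum ran from 30.8 to 33.6 CPM in siCtrl and from 53.9 to 60.3 CPM in siRSL24D1, and Olig2 had no count in siCtrl. Most of that sum was Tubb3, a neuronal tubulin gene, at 21.2 ± 1.48 CPM over the siCtrl libraries and 44.9 ± 4.34 CPM over the others (SD, n = 3), with a log2 fold change of 1.08 ± 0.08 (SE, adjusted p = 6.1e-05). The other gene that rose was Zic1, a dorsal neural factor, at 0.0815 ± 0.0772 CPM over the siCtrl libraries and 0.420 ± 0.0799 CPM over the others (SD, n = 3), with 2.34 ± 0.59 (SE, adjusted p = 0.014).

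Of 11 fibroblast and feeder markers, 10 were tested, 3 rose and 2 fell. The matrix genes Col3a1 and Fbn1 rose with 0.61 ± 0.08 (SE, adjusted p = 5.8e-04) and 0.34 ± 0.09 (SE, adjusted p = 0.017), and Prrx1 rose with 0.75 ± 0.23 (SE, adjusted p = 0.032). Col1a2 and Pdgfrb fell with -0.46 ± 0.06 (SE, adjusted p = 5.0e-04) and -0.52 ± 0.12 (SE, adjusted p = 0.011). The Fbn1 call was lost without siCtrl replicate 1 or 2 or siRSL24D1 replicate 3 (adjusted p = 0.052 to 0.064), and that of Prrx1 when any 1 siCtrl library or siRSL24D1 replicate 1 was left out (adjusted p = 0.058 to 0.1). The list's sum ran from 157 to 197 CPM in siCtrl and from 165 to 189 CPM in siRSL24D1, so the groups overlapped. Of 10 markers of extraembryonic mesoderm and blood, 8 were tested, 5 rose and 1 fell. Their sum ran from 64 to 70.2 CPM in siCtrl and from 67.4 to 70.7 CPM in siRSL24D1, and none was at 0 in siCtrl. Most of that sum was Pecam1, an endothelial adhesion gene, at 54.1 ± 3.90 CPM over the siCtrl libraries and 46.9 ± 2.25 CPM over the others (SD, n = 3), which fell with -0.21 ± 0.06 (SE, adjusted p = 0.033), a call lost without siCtrl replicate 1 or 2 or siRSL24D1 replicate 1 or 3 (adjusted p = 0.068 to 0.12). The list's median log2 fold change was 0.78. Kdr, a VEGF receptor gene, rose with 1.08 ± 0.13 (SE, adjusted p = 4.6e-04), Tal1, a blood factor gene, with 1.16 ± 0.23 (SE, adjusted p = 0.0052) and Hbb-bh1, an embryonic globin gene, with 1.20 ± 0.25 (SE, adjusted p = 0.0058). Hand1 rose with 0.75 ± 0.16 (SE, adjusted p = 0.0061) and Foxf1 with 0.81 ± 0.27 (SE, adjusted p = 0.043). The Foxf1 call was lost without a filter (adjusted p = 0.053), in DESeq2 (adjusted p = 0.13) and when any library other than siRSL24D1 replicate 2 was left out (adjusted p = 0.071 to 0.13).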

How the data were processed

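Total RNA of 6 libraries was depleted of ribosomal RNA and sequenced with a stranded kit, per the labels' protocols. The authors deposited estimated counts per gene symbol, not scaled between libraries, of which 21.59% to 22.65% per library were not whole numbers. Per the submitters' processing notes, STAR 2.7.0f, Salmon 0.14.1 and build GRCm38 were used; for annotation, filters and strand setting the sources used here give nothing. The tests had been planned for whole counts, so values were rounded first.

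Genes were kept by filterByExpr (minimum count 10, minimum total 15; 15084 genes), or not filtered (19740 genes with a count). Libraries were scaled by TMM and compared with edgeR 4.0.16 (quasi-likelihood F test, two-sided, R 4.3.3). Benjamini-Hochberg adjustment ran over all genes tested, with a threshold of 0.05. The filtered fit was tested on data simulated for the genes kept by the filter, and the unfiltered fit was not. SEs were derived from the F statistic. DESeq2 1.42.0 (Wald) and the other alternatives are in the closing section. Levels are CPM on rounded counts. Ratios of summed scaled counts have 95% Clopper-Pearson intervals. A siCtrl count of 0 was replaced by a floor of 3 counts over the group, and such a ratio has no interval. Positions are from GENCODE M21, in which 22304 symbols were found. No table column was left out.

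Hox genes past the filter are named, with counts for the rest; 1 Hox gene and 1 cofactor gene, which stay in the sums and counts, are not reported here. Of each pathway list, the called members are named where 5 or fewer moved one way, otherwise the 3 with the largest change, besides genes chosen by name. The members and lists were chosen with earlier results of these data known. The nearest neighbours, the cell type markers and 5730596B20Rik were named after their values were seen.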

Additional observations from a re-analysis of the deposited data

How the results depend on the processing

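In edgeR's filtered test, the Hox count of 12 that rose was 5 when at least 1 CPM in at least 3 libraries was required, since fewer members were tested, and 9 to 12 under the other settings of scaling, threshold, rounding and test apart from the unfiltered 18. With 1 library left out it was 10 to 12, and the unfiltered count was 11 to 16; no setting called a Hox gene lower. Over all genes, an adjusted p under 0.01 left 1886 that rose and 1867 that fell, from 3191 and 3021, and leaving out 1 library gave 2210 to 3356 and 2147 to 3285. The neighbour count of 19 called was 15 to 19 with 1 library left out. The ratio of summed Hox counts, 2.28, was 2.20 to 2.36 with 1 library left out, and 2.26 and 2.32 under other scalings. Rarb, at -0.04 on the log2 scale, changed sign without siCtrl replicate 2 (0.060), siRSL24D1 replicate 2 (0.0023) or siRSL24D1 replicate 3 (0.028), within a range of -0.19 to 0.060 with 1 library left out. Pou5f1, at 0.0012, changed sign with DESeq2 size factors (-0.010), without a filter (-0.0049), in DESeq2 (-0.013) and without a filter but with the replicate block (-0.0035), and ran from -0.076 to 0.036 with 1 library left out. The 2 groups share replicate numbers, but the deviations of same-numbered libraries correlated at -0.22, 0.14 and 0.17. Those of differently numbered libraries ran from -0.40 (siCtrl 3 with siRSL24D1 2) to 0.34 (siCtrl 1 with siRSL24D1 2). The numbers were therefore not taken to pair the samples. With the replicate number as a block, 12 Hox genes rose in the filtered fit, as without it, and 14 in the unfiltered fit; over all genes 3327 rose and 3104 fell. Of the recomputed single-gene values, 1021 kept direction and side of the threshold, 104 no longer passed, 3 newly passed and 9 changed sign. Most Hox genes had fewer than 50 counts in each group (28 of 39), which limits what could be tested.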
